A study of Mus musculus with 12 samples.

Results

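In mouse embryonic fibroblasts, 622 transcript IDs carried at least 2 times as many ribosome footprints as RNA reads, relative to library totals, in each of 3 library pairs at 35 °C. They were taken from 22277 eligible IDs, of 63759 in the files. An eligible ID had a listed length above 100 and under 3000 and at least 20 counts in each of the 6 RNA libraries. Levels were expressed as CPM, an ID's counts per 1000000 counts of its library. The ratio was log2(footprint CPM + 0.5) minus log2(RNA CPM + 0.5). A member needed a ratio of 1 or more in each numbered pair at 35 °C and a mean footprint level under 1000 CPM there. The members were thus chosen by their values at 35 °C, which are given below as a description and without a test. Another 13 IDs met the ratio but stood above the limit, at 1132 to 13573 CPM, while the highest member was at 896.9 CPM. Just inside the ratio limit, 115 members had a lowest ratio under 1.1, and just outside it 144 eligible IDs had one from 0.9 up to 1.

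The cells were confluent wild-type C57BL/6 mouse embryonic fibroblasts, connective-tissue cells grown from embryos. All cells were synchronised with Dex. One set stayed at 35 °C, and the other was warmed to 38.5 °C over the 2 h that began 24 h after Dex, a step the labels call WTS. Each treatment had 3 libraries of RNA-seq, from total RNA, and 3 of ribosome profiling, from cells lysed with cycloheximide, which arrests ribosomes on the mRNA. When the unwarmed cells were harvested relative to Dex is not in the labels used here, so warming and harvest time cannot be told apart.

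Ribosome profiling sequences the stretches of mRNA that translating ribosomes shield from nuclease. The ratio of footprints to RNA is the usual measure of translational efficiency, meaning how much ribosome traffic an mRNA carries for its abundance. Entry of ribosomes at the start of the coding region is regarded as its main control, and mRNAs with short coding regions are known to carry ribosomes densely in many cells. Ribosomes that move slowly also raise the ratio. Gene names are not paired with IDs in the files, and 0 IDs matched the name and sequence tables used here. No gene, gene group or sequence is therefore given, and neither the fibroblast identity nor any pathway could be examined.

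Library totals ran from 8686742 to 12212227 counts in RNA and from 8449802 to 82560281 in footprints. The labels number the replicates 1 to 3, and in both assays and treatments number 1 was far from the other numbers. In footprints, the counts of numbers 2 and 3 differed by 1.32 and 1.34 times the variance of pure counting, at 35 °C and 38.5 °C respectively, whereas number 1 differed from them by 58.0 to 98.2 times. In RNA the corresponding values were 4.34 and 1.57 for numbers 2 and 3, and 28.9 to 40.1 for number 1. The footprint libraries numbered 1 were also the deepest, at 23393113 and 82560281 counts, and the part of depth in these values was not tested. The series text calls the experiments independent, but no label ties a number to a culture or a day, so p-values measure the spread between these libraries. CPM values here are not TMM-scaled, and TMM factors over the 12 libraries were 0.675 and 0.699 for the footprint libraries numbered 1 and 0.976 to 0.997 for the other footprint libraries. The members formed 417 groups of IDs that appear to share reads: IDs within 30 rows of each other, with a mean of at least 10 counts, whose counts agreed within 25% in all 12 libraries were joined. Of the members, 304 shared a group with another member, with up to 9 in a group, so the number of distinct transcripts among them is smaller than 622.

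At 35 °C the members held 7.07 ± 0.134% of footprint counts but 2.21 ± 0.145% of RNA counts (SD, n = 3 each). After warming these shares were 6.89 ± 0.109% and 2.15 ± 0.0870% (SD, n = 3 each). The median member had 67.0 CPM in footprints and 20.2 CPM in RNA at 35 °C, against 10.6 and 15.1 CPM for the other 21655 eligible IDs. The members spanned a wide range of abundance, from 2.12 to 412.5 CPM in RNA and from 6.53 to 896.9 CPM in footprints. Per 1000 units of listed length, the median RNA level at 35 °C was 78.8 CPM in members and 33.6 CPM in the others, and the median footprint level was 253.6 and 23.2 CPM. Members were found at low and at high RNA depth. A ratio of 1 or more in all 3 pairs after warming was found in 83.5% of the 121 members with a lowest RNA count of 20 to 49. In the classes of 50 to 99, 100 to 199 and 200 to 499 counts, this share was 79.5%, 85.0% and 77.1% of 117, 133 and 179 members. It was 95.8% of the 72 members with 500 counts or more, and it did not rise steadily with depth.

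**Figure D1:**
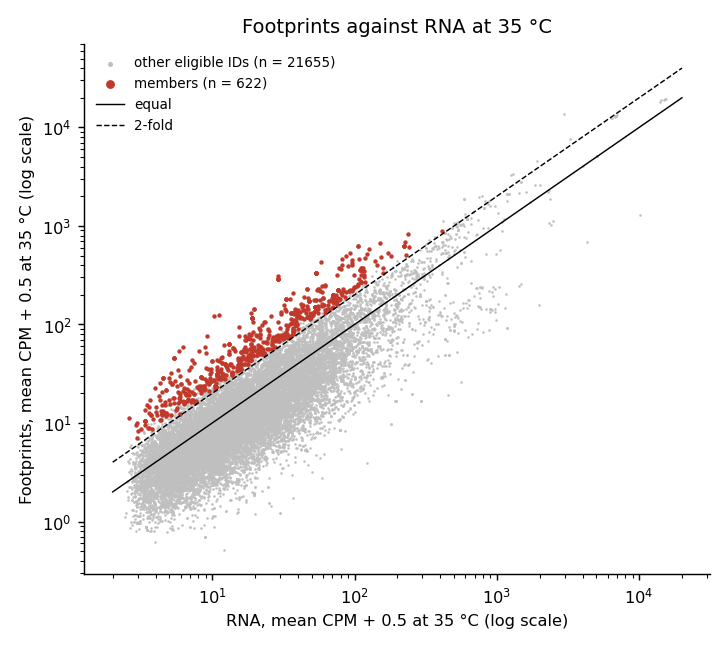
Mean footprint level against mean RNA level at 35 °C for the 22277 eligible IDs, both in CPM + 0.5 on log axes. The 622 members (red) lie along the upper edge of the cloud over most of its RNA range. The solid line marks equal levels and the dashed line a 2-fold excess of footprints, which was part of the choice of members.

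The median ratio of the members at 35 °C was 1.38, 1.51 and 1.66 on the log2 scale in numbers 1, 2 and 3. The medians of all eligible IDs were -0.72, -0.30 and -0.28. The mean ratio over the numbers was 2 or more in 120 members and 3 or more in 9, with a median of 1.52.

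The libraries at 38.5 °C took no part in the ratio rule, and in them the members kept a high ratio. Their median ratio was 1.41, 1.61 and 1.55 in numbers 1, 2 and 3, against medians of -0.71, -0.28 and -0.31 over all eligible IDs. A ratio of 1 or more was found in 534, 611 and 606 of the 622 members, and in all 3 warm pairs in 514 members, or 82.6%. Among the 21655 other eligible IDs this held for 167, or 0.771%. Of the 108 members under 1 in some warm pair, 83 were under it in number 1 alone and 1 was under it in all 3 pairs. The lowest warm ratio of any member was 0.09, so each member had more footprint than RNA CPM in each warm pair. Numbers 1 to 3 may share cultures with the pairs at 35 °C, so the warm libraries are not shown to be fully independent of those that chose the members.

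Footprints were compared with RNA in the 6 warm libraries with edgeR's quasi-likelihood test over 27323 IDs, at an adjusted p under 0.05. The test called 599 of the 622 members higher in footprints and 0 lower. The background was high, with 22.5% of all tested IDs called higher, and TMM scaling placed the median fitted ratio over all tested IDs at -0.01. With the replicate number as a block, all 622 members were called higher, against 30.7% of tested IDs. A stricter test asked for more than a 2-fold excess on the total-count scale of the rule, and was added after the data were seen. It called 282 members against 2.14% of all tested IDs. With the replicate number as a block it called 485 members against 3.37%.

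**Figure D2:**
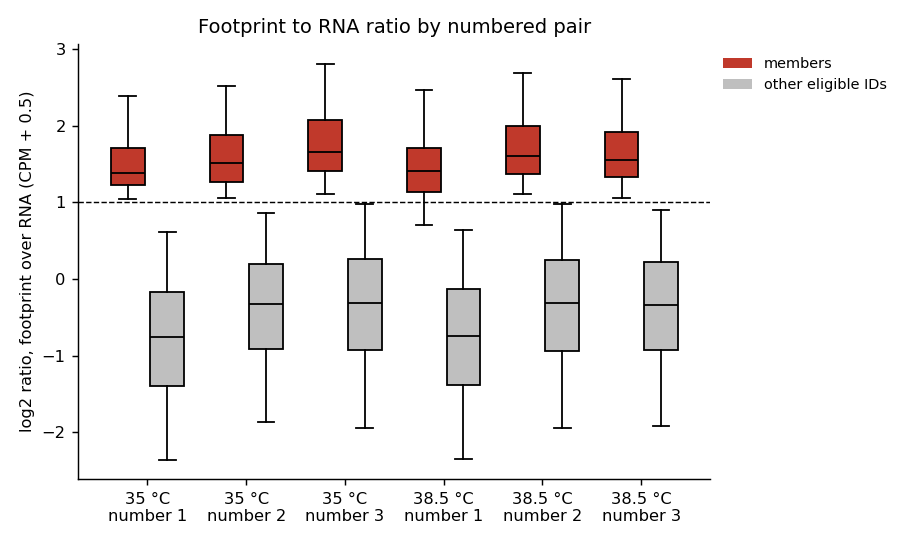
Log2 ratio of footprint to RNA (CPM + 0.5) in each numbered pair of libraries, for the 622 members (red) and the other 21655 eligible IDs (grey). Boxes show quartiles and median, whiskers the 5th and 95th percentiles, and the dashed line the limit of 1 that chose the members in the 35 °C pairs. The member medians lie between 1.38 and 1.66 in all 6 pairs.

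The length of the list depended on number 1. Without number 1, 2 or 3 in the rule, 1005, 704 and 644 IDs met it, and the 622 members are by construction the IDs among them that also met it in the number left out. Of the 1005 IDs chosen by numbers 2 and 3, 61.9% had a ratio of 1 or more in number 1, against 3.62% of eligible IDs. At the looser limit of more footprint than RNA CPM in number 1, it was 988 of the 1005. The share of eligible IDs above that limit is not given, and their median ratio in number 1 was -0.72. In the warm libraries the ratio of number 1 minus the mean of numbers 2 and 3 had a median of -0.19 in members and -0.38 in all eligible IDs.

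Number 1 also differed from the other numbers in the levels of many members. After warming, RNA and footprints were both at least 2-fold higher in number 1 in 37 members and both at least 2-fold lower in 36, which is 11.7% of members against 3.92% of all eligible IDs. The ratio of number 1 was at least 2-fold apart from the mean of the others in 41 members, or 6.59%, against 8.73% of eligible IDs. At 35 °C these shares were 15.6% of members in level and 3.38% in ratio, against 4.72% and 7.38% of eligible IDs. Over the 622 members after warming, the deviations of number 1 had SDs of 0.76 in RNA, 0.90 in footprints and 0.46 in the ratio on the log2 scale. Over all eligible IDs these SDs were 0.55, 0.57 and 0.46. The 35 °C ratios of members are bounded by the rule, and no test was made.

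The member with the highest mean ratio after warming, taken over 1 ID per read-sharing group, had a listed length of 182. Its RNA was at 45.9, 23.4 and 16.7 CPM in numbers 1, 2 and 3 at 35 °C and at 43.1, 16.7 and 20.4 CPM after warming. Its footprints were at 607.3, 163.7 and 165.6 CPM at 35 °C and at 440.6, 182.4 and 174.4 CPM after warming. Number 1 was the highest in both assays and both treatments, and the ratio was 3.71, 2.78 and 3.27 at 35 °C and 3.34, 3.41 and 3.07 after warming. Number 1 was also far higher in level in the ninth in that order. That ID, of listed length 262, had 122.9, 27.6 and 22.02 CPM of RNA and 923.6, 194.0 and 179.4 CPM of footprints at 35 °C, and its lowest ratio in the 6 pairs was 2.75. The 10 groups with the highest ratio after warming had listed lengths from 104 to 509. In these 10 groups the ratio of number 1 was at least 2-fold below the mean of numbers 2 and 3 in 4 at 35 °C and in 2 after warming, and at least 2-fold above it in 0. The eighth, of listed length 121, had ratios of 1.58, 2.77 and 3.23 at 35 °C and of 1.87, 3.404 and 3.30 after warming. The eighth and the ninth were picked after their values were seen, as examples of a ratio that differed in number 1 and of one that did not differ by 2-fold.

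The members were short. Their median listed length was 253 (quartiles 160 and 402), against 456 (283 and 727) for the other eligible IDs. Counted as 1 ID per read-sharing group, the median was 245. The unit of the length is not stated in the sources used here. Its median over all 46419 IDs with a length was 368, and IDs without a length held 0 counts, so it may be a length of the coding region in codons rather than of the mRNA in bases. Members made up 7.47% of the eligible IDs with a length up to 200, 4.18% of those over 200 and up to 300, 2.59% of those over 300 and up to 500, 1.07% of those over 500 and up to 1000 and 0.802% of those above 1000. The shortest of these classes held 36.0% of the members and 13.5% of the eligible IDs.

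The same order with length was seen over all eligible IDs. Their median ratio after warming fell from -0.04 in the class up to 200 to -0.19, -0.33, -0.58 and -0.90 in the successive longer classes. At 35 °C the corresponding medians were -0.04, -0.21, -0.34, -0.57 and -0.87. Within the members, the class medians after warming lay between 1.48 and 1.63, a range narrowed by the limit of 1 that chose them at 35 °C, so no relation with length is read within the members. Short length and RNA depth were set side by side. In every class of lowest RNA count the members were shorter than the eligible IDs, with median lengths of 238 against 342 at 20 to 49 counts and 369.5 against 609 at 500 counts and above. The part of length or of read assignment in the ratio was not tested.

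**Figure D3:**
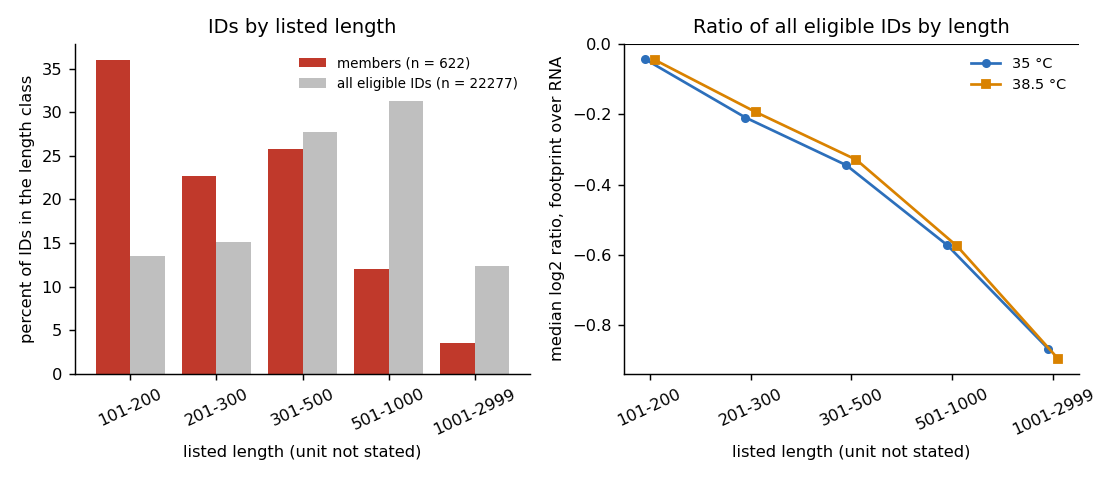
Left, percent of the 622 members (red) and of all 22277 eligible IDs (grey) in 5 classes of listed length. Right, median log2 ratio of all eligible IDs in the same classes at 35 °C and 38.5 °C. Members are most frequent in the class up to 200, with 36.0% against 13.5%, and the median ratio falls from -0.04 to about -0.9 with length.

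The number of members called changed after warming depended on the fit, and called changes were less than 2-fold with the replicate block. The 35 °C libraries of this comparison also chose the members, and that choice favours high footprint and low RNA values there. Counts by direction are therefore descriptions, set beside those of all tested IDs. Without a replicate block, edgeR's quasi-likelihood test called 0 of 622 members in footprints, where 0.0297% of 26920 tested IDs were called. An unadjusted p under 0.05 was found in 24 of the 622 members and in 1787 of the 26920 tested IDs. In RNA that test called 0 members, where 0% of 27223 IDs were called. There, 13 of the 622 members and 1119 of the 27223 IDs had an unadjusted p under 0.05. DESeq2 without a block called 3 members in footprints (0.482%, against 0.308% of all tested IDs) and 1 in RNA (0.161% against 0.165%), all lower. Libraries numbered 1 deviated together between treatments (correlation 0.840 in RNA and 0.853 in footprints), while numbers 2 and 3 were not told apart. With the number as a block the calls changed as follows.

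With the block, 26 members rose and 36 fell in footprints after warming, together 9.97% of the members against 6.49% of all tested IDs. Over all tested IDs, 3.49% rose and 3% fell. The median size of the called changes was 0.46 on the log2 scale for those that rose and 0.47 for those that fell, and the largest were 0.56 and 0.81. The 26 members that rose formed 14 read-sharing groups and the 36 that fell formed 28. Without number 1 the block fit called 138 members, or 22.2% against 10.6% of tested IDs. It called 83 without number 2 (13.3% against 5.92%) and 79 without number 3 (12.7% against 6.24%). Members held more footprint counts than other eligible IDs (medians 67.0 and 10.6 CPM at 35 °C), and the part of this depth in the share of calls was not tested.

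In RNA, 6 members rose and 19 fell with the block, together 4.02% of members against 4.65% of all tested IDs, of which 2.29% rose and 2.35% fell. The median size of these changes was 0.47 for those that rose and 0.57 for those that fell, and the largest were 0.92 and 0.70. Without number 1, RNA calls were 13, or 2.09% of members against 1.38% of tested IDs. They were 18 without number 2 (2.89% against 2.18%) and 45 without number 3 (7.23% against 4.39%), the last all lower. The members' share was thus below that of all tested IDs with all 3 numbers and above it with any 1 left out. All 19 members that fell in RNA were also called lower in footprints, and 4 of the 6 that rose in RNA were called higher there. The other 2, called in RNA alone, had RNA changes of 0.92 and 0.38 and footprint changes of 0.38 and 0.24 (edgeR adjusted p = 0.0569 and 0.141 with the block). Of the members called in footprints, 25 of the 26 that rose and all 36 that fell had the same sign in RNA. Over all 622 members, the fitted changes in RNA and footprints had SDs of 0.20 and 0.22, and 75.4% had the same sign in both. These overlaps and shared signs were not computed over all tested IDs, so they are not read as particular to the members.

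**Figure D4:**
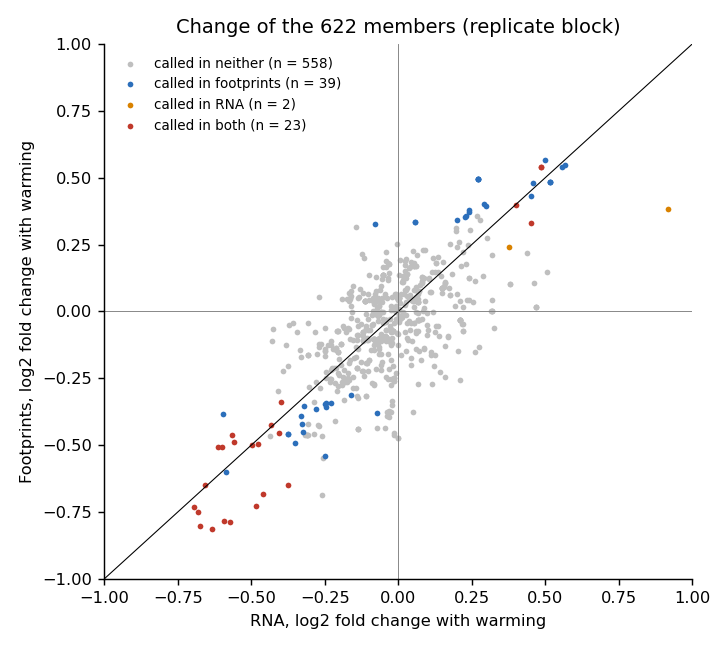
Log2 fold change with warming in RNA (x) and footprints (y) for the 622 members, from edgeR fits blocked on the replicate number. Colours mark calls at an adjusted p under 0.05: 39 members in footprints alone, 2 in RNA alone and 23 in both. Called members lie within 1 unit of 0 in both assays, and the one farthest right, called in RNA alone, is at 0.92 in RNA and 0.38 in footprints.

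The 4 IDs described next were picked by a rule: 1 ID per read-sharing group, footprints at 5 CPM or more on average, and the smallest p in the footprint fit with the block, 2 in each direction. The ID uc008cvl.1, of listed length 283, was at 121.7, 110.7 and 115.1 CPM in footprints at 35 °C and at 175.3, 160.2 and 161.0 CPM after warming. The treatment groups did not overlap. The log2 rise was 0.49 with an SE of 0.07 (blocked edgeR fit, adjusted p = 0.00166, against 0.833 unblocked). Its RNA was at 59.1, 44.1 and 41.4 CPM at 35 °C and 65.6, 53.9 and 56.4 CPM after warming. These groups overlapped, and the RNA change of 0.27 ± 0.10 (SE) was not called (blocked edgeR fit, adjusted p = 0.0793).

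The ID uc008ggm.2, of listed length 603, was at 31.6, 48.2 and 45.9 CPM in footprints at 35 °C and at 41.3, 79.0 and 70.1 CPM after warming. Each numbered pair was higher after warming, and the groups overlapped because number 1 was the lowest of both. The footprint change was 0.54 ± 0.09 (SE; blocked edgeR fit, adjusted p = 0.00324, against 0.590 unblocked). Its RNA went from 8.52, 10.7 and 9.39 CPM to 8.86, 15.2 and 16.5 CPM, a change of 0.49 ± 0.15 (SE; blocked edgeR fit, adjusted p = 0.0276, against 0.99995 unblocked). The RNA call was lost without number 2 (edgeR adjusted p = 0.179) and without number 3 (0.392).

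Both IDs that fell, uc009jxq.1 and uc009jxo.1, stand 2 rows apart in the files and may belong to the same gene, so they are not 2 separate observations. They were also the tenth and the second in the order of ratio after warming. The ID uc009jxo.1, of listed length 509, was at 84.7, 138.1 and 148.0 CPM in footprints at 35 °C and at 48.4, 80.4 and 90.1 CPM after warming. Each numbered pair was lower after warming, while the groups overlapped through number 1. The change was -0.79 ± 0.08 (SE; blocked edgeR fit, adjusted p = 5.98e-05, against 0.496 unblocked). Its RNA went from 14.0, 8.94 and 9.21 CPM to 6.33, 9.18 and 6.14 CPM, a change of -0.57 ± 0.16 (SE; blocked edgeR fit, adjusted p = 0.0199). Number 2 did not fall in RNA, and the call was lost without number 1 (edgeR adjusted p = 0.721) and without number 3 (0.0749).

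The ID uc009jxq.1, of listed length 271, was at 50.8, 88.5 and 91.0 CPM in footprints at 35 °C and at 28.9, 49.5 and 55.1 CPM after warming, a change of -0.81 ± 0.08 (SE; blocked edgeR fit, adjusted p = 5.98e-05, against 0.471 unblocked). These groups overlapped through number 1. Its RNA went from 10.95, 7.41 and 7.72 CPM to 5.41, 7.37 and 4.26 CPM, a change of -0.63 ± 0.18 (SE; blocked edgeR fit, adjusted p = 0.0172). The RNA groups did not overlap, but number 2 differed by little between treatments. That RNA call was likewise lost without number 1 (edgeR adjusted p = 0.5001) and without number 3 (0.153). Counts behind these RNA values were low, with a lowest RNA count of 47 for uc009jxq.1 and 55 for uc009jxo.1. The footprint calls of all 4 IDs held with the block when any 1 number was left out, and with DESeq2 and the block, where 0 of the 3 RNA calls held. Without number 1 the footprint fit rests on the small spread between numbers 2 and 3. The 4 IDs were picked by their p in the blocked fit on the same libraries, which favours keeping their footprint calls. DESeq2 without the block called uc009jxq.1 and uc009jxo.1 (DESeq2 adjusted p = 0.0337 and 0.0221). It did not call uc008cvl.1 or uc008ggm.2 in footprints (DESeq2 adjusted p = 0.99996 and 0.345).

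**Figure D5:**
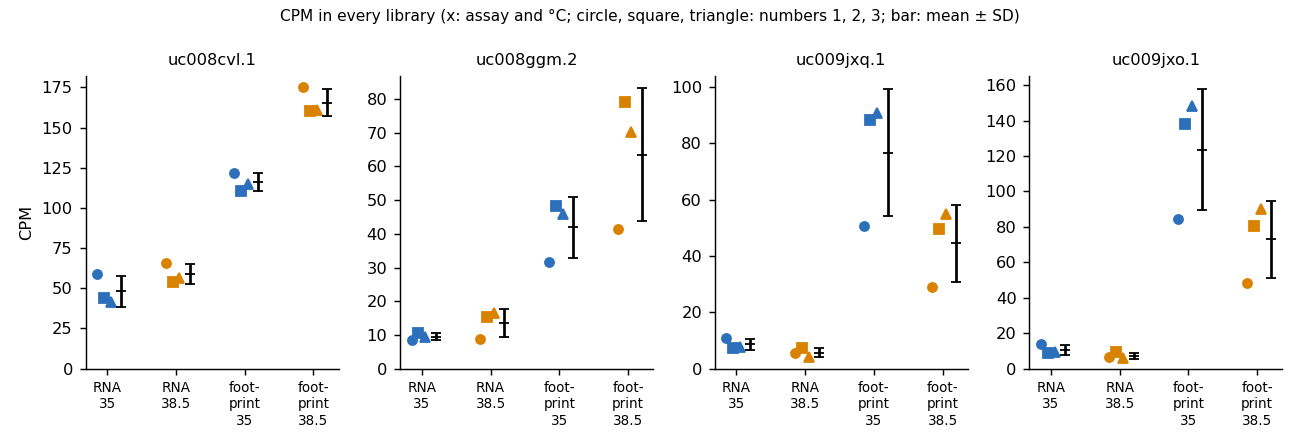
CPM of the 4 named IDs in all 12 libraries, by assay and temperature in °C. Circles, squares and triangles are numbers 1, 2 and 3, and bars show the mean ± SD of 3 libraries. Footprints of uc008cvl.1 do not overlap between treatments, and in the other 3 IDs the overlap comes with number 1.

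The ratio of the members was not seen to change with warming. The median change of the ratio was -0.04, 0.11 and -0.10 in numbers 1, 2 and 3 on the log2 CPM scale, so it differed in sign between numbers, and it was 0.03, 0.02 and -0.03 over all eligible IDs. IDs chosen by the same rule in the warm libraries numbered 660, of which 514 were members. A change in translational efficiency was tested as an assay-by-treatment interaction in all 12 libraries. EdgeR called 0 of 622 members without the block, where 0% of 26176 tested IDs were called. An unadjusted p under 0.05 was found there in 1 member and in 257 tested IDs. With the block edgeR called 0, again against 0% of tested IDs, with 4 members and 642 tested IDs at an unadjusted p under 0.05. A fit with a number block in each assay, added after the data were seen, also called 0, against 0% of tested IDs. There, 14 members and 1256 tested IDs had an unadjusted p under 0.05. DESeq2 called 0 members without the block and 0 with it, each against 0% of tested IDs. The fitted changes of members with the block ran from -0.55 to 0.46 on the log2 scale, with a median of -0.02. For uc009jxo.1 the estimate was -0.19 ± 0.28 (SE), and for uc008cvl.1 it was 0.21 ± 0.17 (SE), both with an adjusted p of 0.99986 in that edgeR fit. Neither change was called, and whether changes of that size could be detected with these libraries was not tested.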

How the data were processed

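RNA-seq and ribosome footprints were measured in 12 libraries, 3 in each of 4 groups taken from the sample titles. The authors deposited raw counts per transcript ID beside a listed length of unstated unit. CASAVA 1.8, STAR 2.7.0 and mm10 are listed in the submitters' processing notes. The counter, annotation release and isoform handling are not given in the sources used here. If isoforms share reads, totals count such a read more than once.

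Each assay was fitted over all IDs in edgeR 4.0.16 (R 4.3.3) with filterByExpr, TMM scaling, the robust quasi-likelihood test and Benjamini-Hochberg adjustment at 0.05. Each standard error is the size of the fold change over the root of F. The fits were also run on simulated counts with a single fixed spread and with pairing by number built in. The outcome is not given here and does not show how the fits perform on these data. Deviations from group means of same-numbered libraries had correlations across IDs of 0.485 to 0.840 in RNA and 0.606 to 0.853 in footprints, so fits with the number as a block are given beside those without it. This pairing comes from the data, not the labels, and does not separate numbers 2 and 3: number 2 at 35 °C against number 3 after warming gave 0.571 in RNA and 0.632 in footprints. DESeq2 1.42.0, other scalings, filters, rules and left-out libraries were alternatives. CPM used total counts without TMM. The members and lists were chosen with earlier results of these data known. Named IDs followed the rule given beside them. Lists of fibroblast and other cell-type markers, ribosomal proteins, heat response and clock genes could not be evaluated, because IDs were not matched to names.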

Additional observations from a re-analysis of the deposited data

How the results depend on the processing

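Without a block, calls among members remained at 0 in RNA, footprints and translational efficiency with total-count scaling, with no count filter and when any 1 library was left out. Of all tested IDs, these fits called 0% in RNA and translational efficiency and at most 0.0299% in footprints. Among members, DESeq2 gave 1 call in RNA and 3 in footprints. The replicate block gave 25 and 62, with total-count scaling 25 and 61 (4.02% and 9.81% of members, against 4.16% and 5.55% of tested IDs), with DESeq2 8 and 29 (1.29% and 4.66% against 0.760% and 1.95%), with 1 ID per read-sharing group 19 and 40 of 413 (4.60% and 9.69% against 4.49% and 6.21%), and without number 1, 2 or 3 13, 18 and 45 in RNA and 138, 83 and 79 in footprints. The cause of these shifts was not tested. Fits with 1 ID per read-sharing group hold fewer IDs, and those without a number hold fewer samples. Translational efficiency stayed at 0 calls among members in all of these fits. Of all tested IDs, 0% were called in them too, except 0.0191% with the block and without number 1. In comparing footprints with RNA within the warm libraries, 562 to 607 members were called higher in footprints, and 0 lower, without 1 library. Of all tested IDs, 33.9% to 47.6% were called there in either direction, and the share called higher is not given. With all warm libraries kept, 22.5% of tested IDs were called higher. Against a 2-fold ratio without the block, 282 members were called higher, against 2.14% of tested IDs.

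The list itself depended on the scale of the ratio. With TMM library sizes the rule found 1455 IDs of median length 289, as TMM raised footprint over RNA. Leaving a number out of the rule gave 644 to 1005 IDs, with a median ratio after warming of 1.32 to 1.51, a median length of 252 to 271 and a median RNA level at 35 °C of 15.8 to 19.6 CPM. The rule applied to the warm libraries gave a median length of 289. The median RNA level was 29.5 CPM with at least 50 RNA counts, which raises it by construction, and 18.1 CPM with 1 ID per group.

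For the named IDs, the estimated change in translational efficiency was not called in any fit, and 8 estimates had the other sign. Without 1 library it ran from -0.16 to 0.23 for uc008ggm.2, from -0.39 to 0.071 for uc009jxq.1 and from -0.46 to 0.026 for uc009jxo.1. With the replicate block and without number 2 these were -0.016, 0.20 and 0.14. Low RNA counts limit the ratio: the median SD over numbers of a member's ratio after warming was 0.28 at 20 to 49 counts in the lowest RNA library and 0.14 at 500 and above.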
